A study of Mus musculus with 8 samples.

Results

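The genes described are those for heat shock proteins, their J-domain and BAG partners, and chaperonins, in the colon of mice with colitis. They were chosen by symbol alone: every gene of the table named Hspa, Hspb, Hsp90, Hspd1, Hspe1, Hsph1, Dnaja, Dnajb, Dnajc, Cct or Bag with the family's numbering. The rule gave 86 of the 18806 genes in the table. The rule itself uses no measured value.

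RNA was sequenced from 8 mouse colons in 2 groups. All mice received dextran sulfate sodium (DSS), a sulfated polysaccharide that injures the colon lining when given to mice and is used to produce colitis. The 4 mice of the DSS group received no further agent named in the labels. The 4 mice of the DSS+AP group were in addition given Alistipes putredinis (AP), a gut bacterium that grows without oxygen. The question of the study was whether the bacterium alters the colitis, and the mice sequenced were drawn at random from each group. Strain, age, dose and day are not given in the sources used here, and no group without DSS was analysed here, so every difference is between 2 sets of injured colons. Each library is labelled with a number, written below as DSS 1 to 4 and DSS+AP 1 to 4, and is taken as 1 mouse.

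Heat shock proteins are chaperones: they hold, fold or pass on proteins that have not reached their final shape. Hsp70 proteins (Hspa genes) bind short stretches of unfolded chains in cycles driven by ATP, with J-domain proteins (Dnaj genes) bringing the clients and starting the ATP step, and with BAG proteins and Hsp110 (Hsph1) releasing the spent nucleotide. Hsp90 finishes kinases and hormone receptors, small heat shock proteins (Hspb genes) hold unfolding proteins without ATP, and the barrel-shaped chaperonins CCT in the cytosol and Hsp60 with Hsp10 in mitochondria fold chains in a closed chamber. The colon wall contains epithelium that divides and secretes, where the endoplasmic reticulum (ER) chaperones are abundant, and smooth muscle, which is known for high levels of small heat shock proteins.

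Each library held between 16089081 and 17104290 estimated counts, and 3 counts in a library correspond to between 0.167 and 0.186 CPM (counts scaled to a common library total). The 86 genes took between 1.01% and 1.33% of the counts of a library. All 12 colon epithelium markers examined were measured, with summed levels between 20672 and 46241 CPM, so the libraries carry the labelled tissue's markers. DSS 4 stood apart in 1 respect: 10 pancreatic acinar genes summed to 15110 CPM there, against 43.1 to 54.8 CPM in the other DSS libraries and 30.7 to 52.1 CPM in DSS+AP. Marker lists of smooth muscle (14 of 15 genes), fibroblasts (8 of 8), enteric neurons and glia (10 of 10), macrophages (9 of 9), neutrophils (8 of 8) and B cells (8 of 8) were lower in DSS+AP. Among all tested genes 20.4% were lower. In RNA from whole tissue, fewer cells of a type and less RNA per cell cannot be told apart. Nothing beyond the study's statement that mice were selected ties each library to a separate mouse. The p-values of edgeR weigh a difference between groups against the spread between these libraries.

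The sequences before the start sites of some of these genes are shown because stress-induced chaperone genes are classically controlled from there. The Hspa1 pair described next also differs little in that stretch. The sequences come from RefSeq promoter windows on build GRCm38.p6, which reach 250 bases before to 50 bases after each start. Of the 86 genes, 70 had a window. Capitals mark the paired units of a heat shock element, searched on both strands as GAA and TTC, in either order, with any 2 bases between them. Hspa1a (chr17:34972157-34972406, minus strand) and Hspa1b (chr17:34959239-34959488, minus strand) encode the same stress-inducible Hsp70, lie 12918 bases apart on chromosome 17, have 1 exon each, and differ at 3 of the 250 bases before the start.
Hspa1a: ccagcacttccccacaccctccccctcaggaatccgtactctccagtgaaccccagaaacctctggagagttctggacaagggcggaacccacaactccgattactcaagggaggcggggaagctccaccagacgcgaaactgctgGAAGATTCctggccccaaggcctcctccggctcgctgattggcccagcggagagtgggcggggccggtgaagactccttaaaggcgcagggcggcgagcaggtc
Hspa1b: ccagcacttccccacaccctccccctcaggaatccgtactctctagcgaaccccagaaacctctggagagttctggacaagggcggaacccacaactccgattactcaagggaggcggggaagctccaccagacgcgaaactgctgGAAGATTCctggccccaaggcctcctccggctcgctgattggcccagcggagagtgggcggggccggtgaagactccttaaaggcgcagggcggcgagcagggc

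Hspd1 and Hspe1, the genes of mitochondrial Hsp60 and its lid Hsp10, lie head to head on chromosome 1. Of the 2 annotated starts of Hspd1, 1 lies 95 bases past the Hspe1 start, so that the annotated spans overlap. The other lies 216 bases before the Hspe1 start. The stretch shown lies before the Hspe1 start (chr1:55088039-55088096, plus strand) and between the Hspd1 starts, inside the annotated span of Hspd1. Its capitals are overlapping matches.
Hspe1: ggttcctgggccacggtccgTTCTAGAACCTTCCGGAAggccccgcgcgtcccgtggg

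Stretches with a match were also taken from Dnaja1 (chr4:40722314-40722381, plus strand, inside an exon of the pseudogene Gm6297 on the other strand), Hspb1 (chr5:135887772-135887859, plus strand), Hspb6 (chr7:30553151-30553218, plus strand) and Hsph1 (chr5:149636351-149636380, minus strand). They belong to genes that were lower in DSS+AP, whereas the Hspd1 and Hspe1 stretch belongs to genes that were higher. The Hspb6 and Hsph1 stretches lie inside the annotated span of their genes, before an internal start. For Hspb6 that start is at 30553301, where the gene begins at 30552535. For Hsph1 it is at 149636336, where the gene begins at 149636498 on the minus strand.
Dnaja1: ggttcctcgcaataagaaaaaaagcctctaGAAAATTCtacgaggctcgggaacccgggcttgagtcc
Hspb1: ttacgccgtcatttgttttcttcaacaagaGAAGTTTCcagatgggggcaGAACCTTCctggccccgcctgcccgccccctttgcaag
Hspb6: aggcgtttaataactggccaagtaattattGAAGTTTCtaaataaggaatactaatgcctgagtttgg
Hsph1: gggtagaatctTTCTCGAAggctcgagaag

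The paired element was found in the windows of 17.0% of all 27025 genes with a window and of 20 of the 70 chaperone genes. It was in 8 of the 16 lower genes with a window, in 3 of the 6 higher ones and in 7 of the 40 tested genes that were not called, so it lay before genes of either direction. These counts are not of independent windows. Hspd1 and Hspe1, among the higher genes, share the stretch shown, and Hspa1a and Hspa1b, among the lower ones, are nearly identical there. The longer form with 3 such units in alternation, each 2 bases apart, was in the windows of 0.662% of all genes and of Hspd1, Hspe1, Hsph1 and Dnajb6. The longer form overlaps the shorter one by construction, and a match is a description of letters, not a site of binding.

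Of the 86 genes, 77 had enough counts to be tested. With edgeR's quasi-likelihood test and an adjusted p under 0.05 over all 14578 tested genes, 9 of the 77 (11.7%) were higher in DSS+AP and 18 (23.4%) were lower. Among all tested genes 8.84% were higher and 20.4% lower (29.2% in either direction). Both shares are near the background, so the family as a whole did not stand out in this fit. The median log2 fold change was 0.03, against 0.02 for all tested genes. The 8 libraries separated fully by group for 12 genes with all DSS+AP values on top and for 18 with all of them at the bottom, where 10.8% and 19.6% of all tested genes did so. By compartment, 16 of the 18 lower genes act in the cytosol and nucleus, as do 47 of the 77 tested, and 6 of the 9 higher genes act in mitochondria, as do 9 of the 77. By library totals instead of TMM factors the counts were 4 higher and 18 lower, against 5.26% and 22.0% of all tested genes. By upper-quartile factors they were 5 and 18, against 6.75% and 21.2%. With limma-voom they were 23 and 20, against 16.5% and 24.0%.

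**Figure D1:**
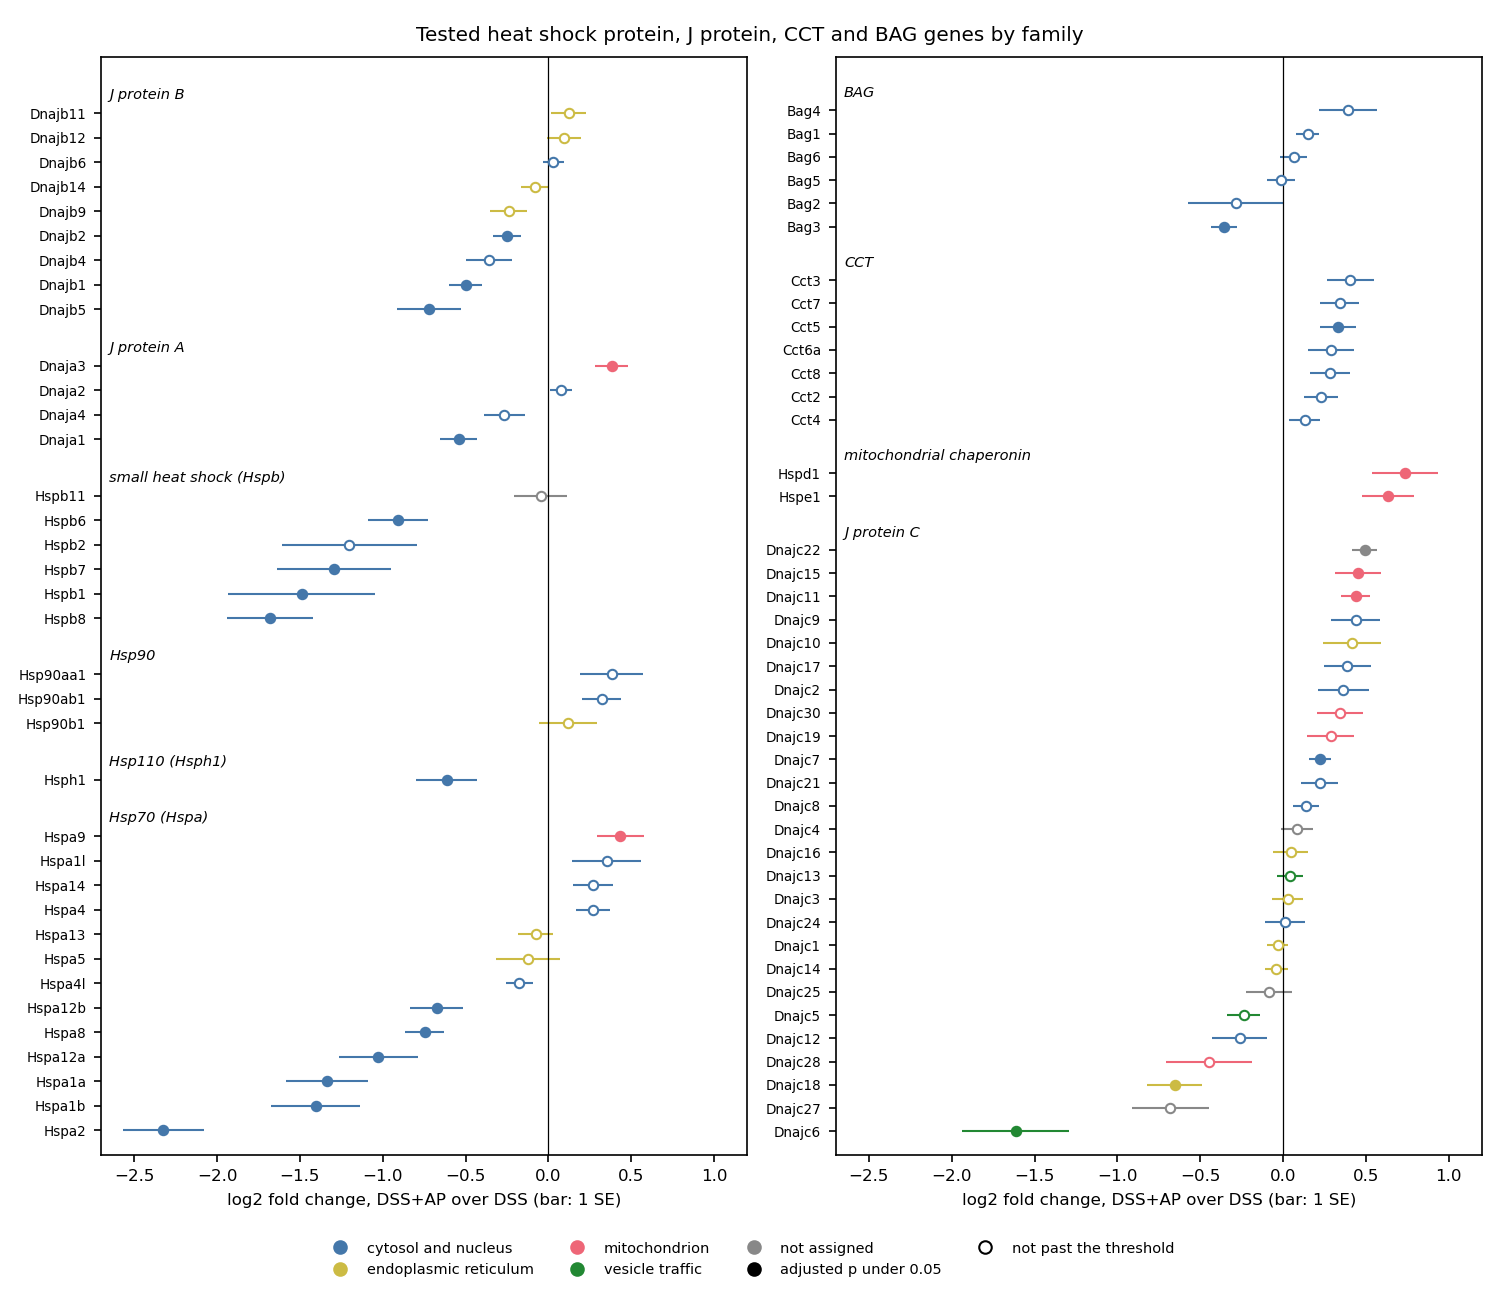
Log2 fold change of DSS+AP over DSS for the 77 tested genes, grouped by family, with bars of 1 SE and 4 libraries a group. Filled points passed an adjusted p of 0.05 in edgeR and colours give the compartment: the filled mitochondrial points lie to the right of 0, and the Hspa and Hspb families hold most filled points to the left.

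Among Hsp70 genes, 6 of 13 (46.2%) were lower and 1 (7.69%) was higher, against 20.4% and 8.84% of all tested genes. Their median log2 fold change was -0.18. Both stress-inducible genes and the constitutive cytosolic one fell, together with Hspa2 and the divergent Hspa12 pair, whereas the mitochondrial gene Hspa9 rose. The ER gene Hspa5 did not pass the test.

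Hspa1b was measured at 37.8, 72.0, 37.2 and 61.1 CPM in DSS 1 to 4 and at 25.6, 14.5, 15.6 and 22.9 CPM in DSS+AP 1 to 4. Hspa1a was measured at 13.8, 27.0, 15.7 and 21.7 CPM in DSS and at 10.1, 5.90, 6.76 and 8.24 CPM in DSS+AP. For both genes all 4 DSS+AP libraries lay below all 4 DSS libraries, with DSS 2 and DSS 4 the highest. The log2 fold changes were -1.40 ± 0.27 (SE) for Hspa1b (edgeR adjusted p = 0.00696) and -1.34 ± 0.25 for Hspa1a (adjusted p = 0.00623). Because 60.3% of the 50-base stretches of Hspa1a transcripts also occur in other genes' transcripts, and 62.3% of those of Hspa1b, the split of reads between them is uncertain. Hspa1a also shares 19.0% of its exon bases with Gm20481 on the other strand. Their sum does not depend on how reads were split between the pair, and it was 71.6 ± 23.3 CPM (SD, n = 4) in DSS and 27.4 ± 7.24 CPM in DSS+AP. The ratio of Hspa1b to Hspa1a stayed between 2.30 and 2.81 in all 8 libraries.

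Hspa8, the constitutive Hsp70 (Hsc70) that also strips clathrin from vesicles, was the most abundant of the 86 genes per length in DSS. It was measured at 2278, 2387, 1747 and 2234 CPM in DSS and at 1414, 1264, 1160 and 1315 CPM in DSS+AP. The groups did not overlap, and the log2 fold change was -0.75 ± 0.12 (edgeR adjusted p = 0.00397). Of its 50-base stretches, 38.6% also occur in transcripts of other genes, most with the pseudogene Gm15459.

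Hspa2, an Hsp70 best known for its need in sperm formation, had the largest fall of the 77 tested genes. It was measured at 22.6, 13.2, 16.2 and 24.0 CPM in DSS and at 3.66, 4.85, 2.67 and 3.96 CPM in DSS+AP. Every DSS library was above every DSS+AP library, and the log2 fold change was -2.32 ± 0.24 (edgeR adjusted p = 0.0032). Of the 5 spermatid markers examined 1 was measured, at 0 in every library except DSS 3, where it was at 0.186 CPM.

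The divergent genes Hspa12a and Hspa12b, whose proteins have an incomplete Hsp70 domain, were also lower. Hspa12a was at 35.9, 24.8, 40.2 and 45.4 CPM in DSS and at 19.6, 24.2, 11.8 and 16.2 CPM in DSS+AP, a log2 fold change of -1.03 ± 0.24 (edgeR adjusted p = 0.0141). Its DSS 2 and DSS+AP 2 values lie almost together, yet the groups did not overlap. The Hspa12a call was lost with the replicate number as a block (edgeR adjusted p = 0.0641). Hspa12b, known from endothelium, fell from 4.40 to 5.42 CPM in DSS to 2.54 to 3.33 CPM in DSS+AP (-0.67 ± 0.16, adjusted p = 0.0149), a call that was lost without DSS+AP 1 (adjusted p = 0.0552).

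Hsph1 encodes Hsp110, a relative of Hsp70 that exchanges its nucleotide. It was at 136, 139, 81.0 and 111 CPM in DSS and at 82.5, 91.5, 68.4 and 61.8 CPM in DSS+AP. DSS 3 lay below 2 DSS+AP libraries, so the groups overlapped, and the log2 fold change was -0.61 ± 0.19 (edgeR adjusted p = 0.0355). The call was lost on leaving out any 1 of DSS 1, 2 and 4 and DSS+AP 1, 3 and 4 (adjusted p 0.069 to 0.104). Its relatives Hspa4 and Hspa4l did not pass the test, at 194 to 250 and 58.7 to 72.8 CPM in DSS and 234 to 294 and 56.9 to 63.0 CPM in DSS+AP.

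**Figure D2:**
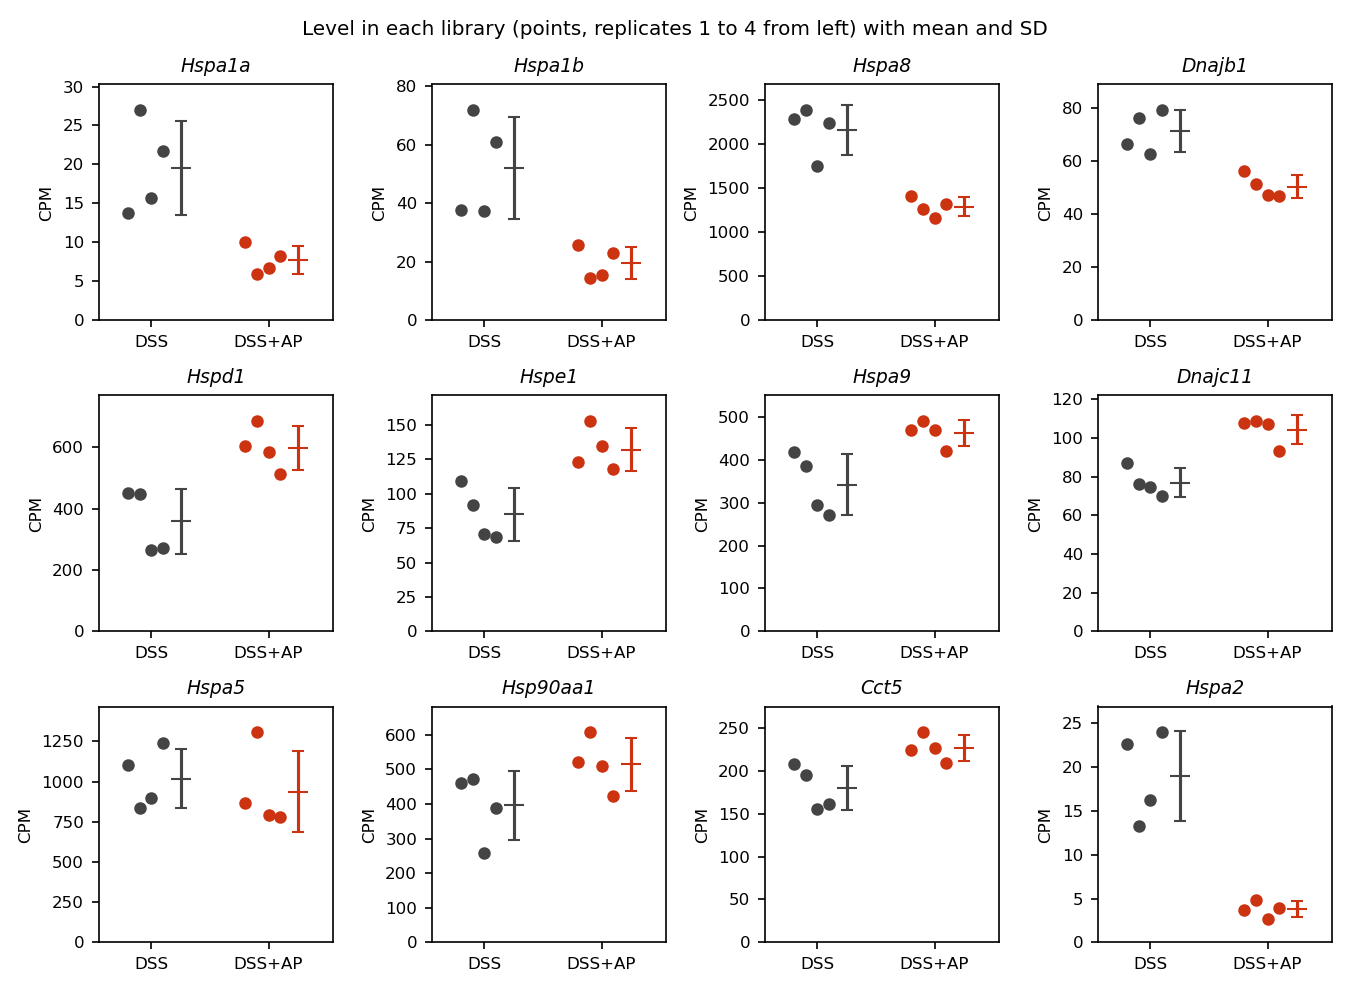
CPM of single libraries for genes of the families described, 1 panel a gene, with a linear axis from 0, points for the 4 libraries of each group (1 to 4 from left) and bars for the group mean and SD. Hspa1b, Hspa8 and Hspa2 are separated between groups with DSS+AP low, Hspd1 with DSS+AP high, and Hspa5 is high in DSS 4 and DSS+AP 2.

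Of the 8 small heat shock genes 6 were tested, 4 (66.7%) were lower and none was higher, against 20.4% and 8.84% of all tested genes. The median log2 fold change of -1.25 was the lowest of the families with more than 1 member. Hspb8, whose protein works with Bag3 in clearing damaged proteins of muscle, was at 46.5, 20.9, 35.3 and 37.7 CPM in DSS and at 9.78, 15.4, 9.80 and 8.86 CPM in DSS+AP. Its groups did not overlap, and the log2 fold change was -1.68 ± 0.26 (edgeR adjusted p = 0.00397). Hspb6 (Hsp20), which is phosphorylated when smooth muscle relaxes, was at 16.0, 9.01, 14.1 and 12.0 CPM in DSS and at 7.44, 7.06, 6.51 and 6.26 CPM in DSS+AP (-0.91 ± 0.18, adjusted p = 0.00806), also without overlap.

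Hspb1 (Hsp27, named Hsp25 in mice), which binds actin filaments, was at 100, 31.4, 40.9 and 44.0 CPM in DSS and at 15.1, 35.1, 12.3 and 14.5 CPM in DSS+AP. DSS 1 was the highest library by a wide gap and DSS+AP 2 lay above DSS 2, so the groups overlapped. The log2 fold change was -1.49 ± 0.44 (edgeR adjusted p = 0.034), and -0.97 without DSS 1. The call was lost on leaving out any 1 of DSS 1, 3 and 4 and DSS+AP 1, 3 and 4 (adjusted p 0.0512 to 0.0962), and 48.8% of its 50-base stretches occur in other genes' transcripts, most in the pseudogene Hsp25-ps1.

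Hspb7, a small heat shock protein of muscle, was at 31.7, 13.1, 20.2 and 21.0 CPM in DSS and at 8.70, 13.8, 4.77 and 7.74 CPM in DSS+AP (-1.29 ± 0.34, edgeR adjusted p = 0.0225). DSS+AP 2 lay above DSS 2, and the call was lost without any 1 of DSS 1 and 4 and DSS+AP 1, 3 and 4 (adjusted p 0.0512 to 0.0636). Hspb2 lay between 1.16 and 1.45 CPM in DSS and between 0.124 and 0.840 CPM in DSS+AP without passing the test (-1.20 ± 0.41, adjusted p = 0.0534), and 30.2% of its exon bases overlap Cryab on the other strand. Hspb11, which serves transport in cilia rather than folding, was at 6.24 to 8.71 CPM in DSS and 6.42 to 8.99 CPM in DSS+AP.

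The smooth muscle markers moved with these genes. Their sum was between 3812 and 6179 CPM in DSS and between 1880 and 3492 CPM in DSS+AP (exact two-sided permutation test over 70 assignments, p = 0.0286, the smallest it can give), and 14 of 15 markers were lower. The fibroblast sum was between 2510 and 5772 CPM in DSS and between 1340 and 2084 CPM in DSS+AP. DSS 2 had the lowest sum of its group for both lists, and also the lowest Hspb1, Hspb6, Hspb7 and Hspb8 of its group. DSS+AP 2 had the highest of its group for both lists and for Hspb1, Hspb7 and Hspb8. The part of the muscle and fibroblast content in the falls was not tested.

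**Figure D3:**
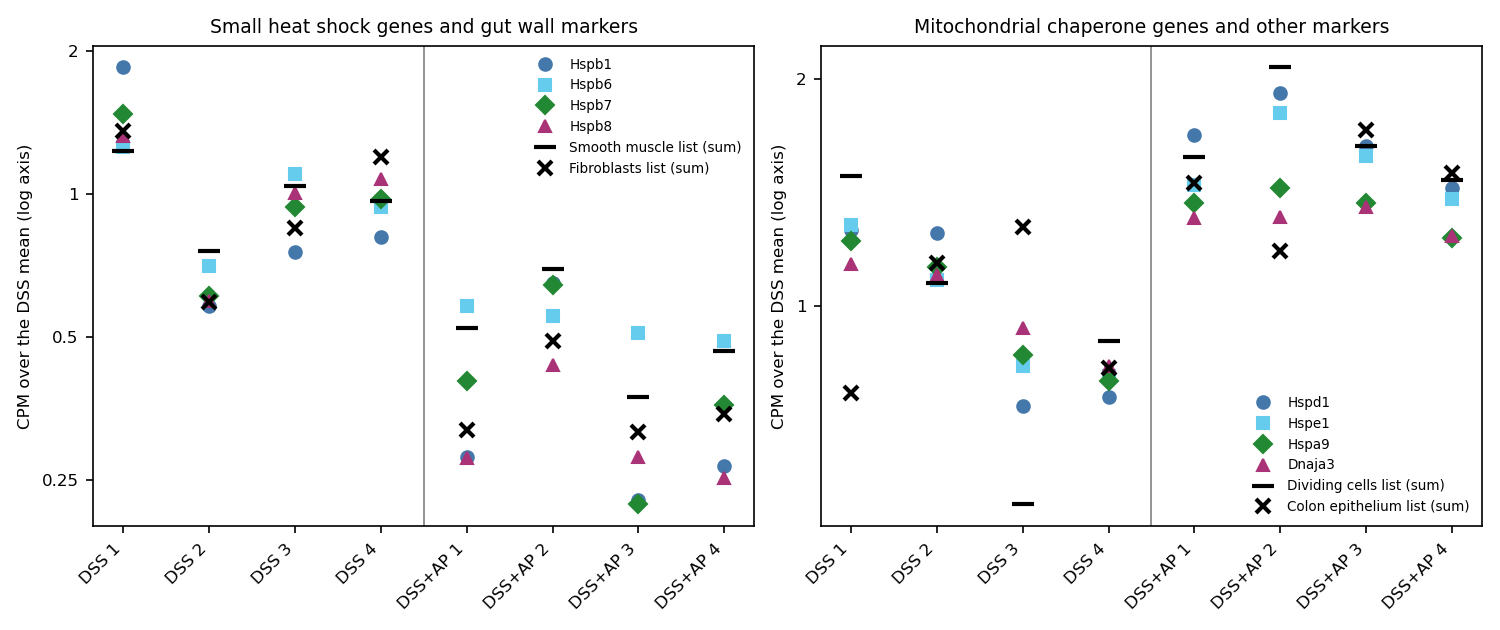
CPM of 4 small heat shock genes (left) and 4 mitochondrial chaperone genes (right) in each library, divided by the gene's DSS mean, on a log axis, with the sums of 2 marker lists drawn in black the same way. Smooth muscle and fibroblast sums are low in DSS 2 and high in DSS+AP 2 within their groups, as are Hspb1, Hspb7 and Hspb8, and the dividing cell sum is lowest in DSS 3.

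None of the 3 Hsp90 genes passed edgeR's test, where 29.2% of all tested genes did. Of the 3, Hsp90ab1 alone had an unadjusted p under 0.05 (0.0227), as did 6249 of all 14578 tested genes. Hsp90ab1, the constitutive cytosolic Hsp90, was at 1407, 1587, 1131 and 1202 CPM in DSS and at 1705, 1730, 1709 and 1518 CPM in DSS+AP (0.32 ± 0.12, edgeR adjusted p = 0.0673). Only DSS+AP 4 lay below the highest DSS library, and the gene passed without DSS 2 (adjusted p = 0.0163), without a low-count filter, and with DESeq2 and limma-voom. Hsp90aa1, the stress-inducible form, was at 461, 472, 259 and 389 CPM in DSS and at 520, 608, 509 and 422 CPM in DSS+AP (0.38 ± 0.19, adjusted p = 0.159). DSS 3 was the lowest library by a wide gap, and without it the log2 fold change was 0.22. Of its 50-base stretches, 47.5% also occur in transcripts of other genes, most with Gm12346.

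Hspa8 and Hsp90ab1 exchanged places as the most abundant of the 86 genes per length. Hspa8 averaged 903 CPM per kb of exon in DSS and 538 in DSS+AP, and Hsp90ab1 averaged 528 and 661 CPM per kb. The ratio of Hsp90ab1 to Hspa8 on this scale was between 0.511 and 0.631 in DSS and between 1.10 and 1.40 in DSS+AP. A ratio within a library is free of scaling between libraries, but it was chosen after the values were seen and carries no test.

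Most mitochondrial genes rose: of 9 tested, 6 (66.7%) were higher, none was lower, and the median log2 fold change was 0.43. The shares of all tested genes were 8.84% higher and 20.4% lower. Hspd1 (Hsp60) was at 453, 448, 265 and 272 CPM in DSS and at 604, 687, 584 and 514 CPM in DSS+AP. Its lid Hspe1 (Hsp10) was at 109, 92.1, 70.7 and 68.7 CPM in DSS and at 123, 153, 134 and 118 CPM in DSS+AP. For both genes the DSS libraries fell into a higher pair, DSS 1 and DSS 2, and a lower pair, and all 4 DSS+AP libraries lay above both. The log2 fold changes were 0.73 ± 0.20 for Hspd1 (edgeR adjusted p = 0.0245) and 0.63 ± 0.16 for Hspe1 (adjusted p = 0.0176). The Hspe1 call held in all 17 alternative analyses, whereas the Hspd1 call was lost without any 1 of DSS 3 and 4 and DSS+AP 1 and 3 (adjusted p 0.052 to 0.0636). The ratio of Hspd1 to Hspe1 stayed between 3.74 and 4.92 in all libraries, and 39.7% of the 50-base stretches of Hspd1 and 18.4% of those of Hspe1 occur in other genes' transcripts, mostly pseudogenes.

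Hspa9 (mortalin), the Hsp70 that pulls proteins into mitochondria, was at 417, 385, 294 and 272 CPM in DSS and at 468, 490, 468 and 421 CPM in DSS+AP (0.43 ± 0.14, edgeR adjusted p = 0.0462). Its groups did not overlap, but the call was lost without DSS 3, DSS 4 or any 1 DSS+AP library (adjusted p 0.0628 to 0.107), and by upper-quartile factors and library totals. Dnaja3 (Tid1), the J protein of the matrix, rose from 63.0 to 85.9 CPM in DSS to 93.5 to 102 CPM in DSS+AP (0.38 ± 0.10, adjusted p = 0.023), a call lost without DSS 3 or DSS+AP 3 (adjusted p 0.0581 to 0.0624) and by library totals.

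Dnajc11, a J protein tied to the architecture of the inner membrane, was at 87.3, 76.4, 74.5 and 69.8 CPM in DSS and at 108, 109, 107 and 93.3 CPM in DSS+AP (0.44 ± 0.09, edgeR adjusted p = 0.00806), without overlap and in all 17 alternatives. Dnajc15, a J protein of the import machinery, was at 13.1 to 18.8 CPM in DSS and 19.4 to 24.9 CPM in DSS+AP (0.45 ± 0.14, adjusted p = 0.038). The Dnajc15 call was lost without any 1 of DSS 3 and 4 and DSS+AP 2, 3 and 4 (adjusted p 0.0695 to 0.0994) and by upper-quartile factors and library totals. Dnajc19, Dnajc28 and Dnajc30, the other mitochondrial J proteins, did not pass the test.

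The sum of 14 genes of dividing cells was between 386 and 1052 CPM in DSS and between 1039 and 1465 CPM in DSS+AP (exact two-sided permutation test over 70 assignments, p = 0.0571), with 3 of 14 genes higher. The epithelium sum was between 20672 and 34325 CPM in DSS and between 31899 and 46241 CPM in DSS+AP, with 4 of 12 genes higher. Among all tested genes 8.84% were higher. Muc2 and Car1 made up much of the epithelium sum, and neither passed edgeR's test (adjusted p = 0.107 and 0.161). Both were highest of the DSS group in DSS 3, at 16679 and 5312 CPM. The log2 fold changes of Epcam, Cdh1 and Krt19, also not called, were 0.13, -0.05 and 0.13. DSS 3, which had the lowest Hspd1, also had the lowest sum of dividing cell genes, but its epithelium sum was the highest of the DSS group. The other called mitochondrial genes, Hspe1, Hspa9, Dnaja3, Dnajc11 and Dnajc15, were lowest in DSS 4. The dividing cell sum of DSS 4 was 636 CPM, against 386 CPM in DSS 3. The part of either list in the mitochondrial rises was not tested.

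Within a library, the ratio of Hspa8 to Hspa9 in CPM was between 5.46 and 8.23 in DSS and between 2.48 and 3.13 in DSS+AP. The ratio of Hspd1 to Hspa1b was between 4.44 and 12.0 in DSS and between 22.4 and 47.2 in DSS+AP. Both ratios separate the groups, and both were picked after the gene values were known, so they describe the 8 libraries and carry no test.

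**Figure D4:**
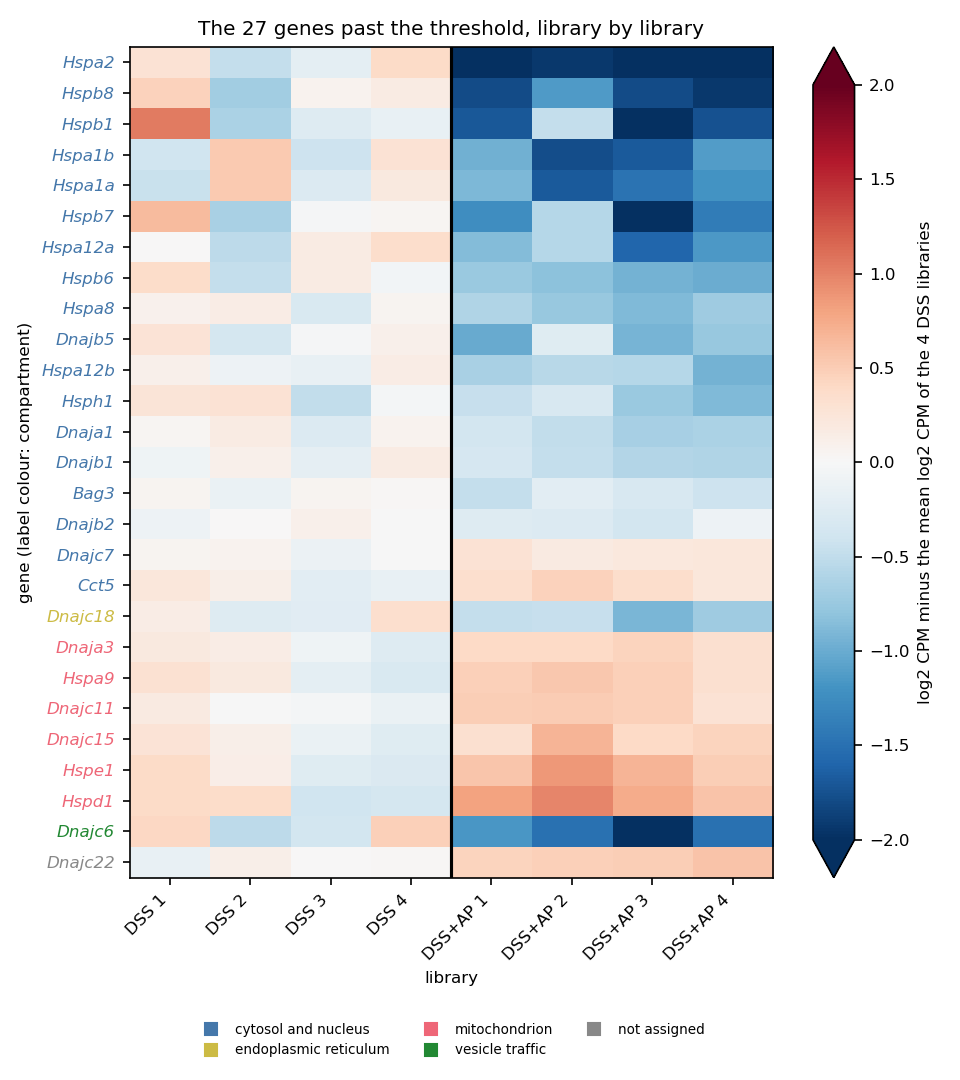
Log2 CPM of the 27 genes that passed the test, minus the gene's mean over the 4 DSS libraries, with 1 row a gene, 1 column a library and label colours for the compartment (the colour scale ends at 2 either way). The lower genes are high in DSS and low in DSS+AP and the higher genes the reverse, with DSS+AP 2 nearer to DSS for several Hspb genes.

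The ER genes gave 1 call among 13, with a median log2 fold change of -0.03. It was a lower one (7.69%), against 20.4% lower and 8.84% higher among all tested genes. The ER stress response element was searched as CCAAT and CCACG with any 9 bases between them. It was in the windows of 3 of the ER genes, Hspa5, Hsp90b1 and Dnajc3, and on either strand in those of 0.137% of all genes. The first 2 are shown because they are the main chaperones of this compartment, with the element in capitals: Hspa5 (chr2:34772020-34772048, plus strand) and Hsp90b1 (chr10:86705633-86705661, minus strand).
Hspa5: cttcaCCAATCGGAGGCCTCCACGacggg
Hsp90b1: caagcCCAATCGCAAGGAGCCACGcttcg

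Hspa5 (BiP), the Hsp70 of the ER lumen, was at 1101, 836, 900 and 1239 CPM in DSS and at 866, 1310, 791 and 779 CPM in DSS+AP. Hsp90b1 (Grp94), the Hsp90 of the ER, was at 1013, 776, 815 and 1028 CPM in DSS and at 911, 1348, 878 and 804 CPM in DSS+AP. In both genes DSS+AP 2 was the highest of all libraries and DSS 4 the second highest, and the groups overlapped throughout. The log2 fold changes were -0.12 ± 0.19 for Hspa5 (edgeR adjusted p = 0.657) and 0.12 ± 0.18 for Hsp90b1 (adjusted p = 0.634), and the latter became -0.066 without DSS+AP 2. Dnajc3, the third gene with the element, was at 198 to 222 CPM in DSS and 197 to 249 CPM in DSS+AP, again highest in DSS+AP 2.

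DSS 4, with the pancreatic acinar genes described above, was the highest DSS library for Hspa5, Hsp90b1 and Dnajb9, and without it the Hspa5 log2 fold change was -0.01, whereas without DSS+AP 2 it was -0.32 (edgeR adjusted p = 0.124). The part of the acinar RNA in these levels was not tested. Of 19 further genes of ER stress, with a median of -0.01, 2 (10.5%) were higher and none lower, against 8.84% and 20.4% of all tested genes. These 2 were the lectin chaperone Canx (0.24 ± 0.07, edgeR adjusted p = 0.0323) and the epithelial stress sensor Ern2 (0.52 ± 0.17, adjusted p = 0.0483). The only ER call among the chaperone genes was Dnajc18, a J protein of the ER membrane, at 14.4 to 21.6 CPM in DSS and 9.11 to 12.4 CPM in DSS+AP (-0.66 ± 0.17, adjusted p = 0.0202), lost without any 1 of DSS 1 and 4 and DSS+AP 1, 3 and 4 (adjusted p 0.05 to 0.0581).

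The CCT ring, which folds actin and tubulin, has 8 subunits, 7 of which the naming rule takes as Cct2 to Cct8 with Cct6a. All 7 had a positive log2 fold change, with a median of 0.29, but only Cct5 (14.3%) passed the test, where 8.84% of all tested genes were higher. Cct5 was at 208, 194, 155 and 162 CPM in DSS and at 224, 245, 227 and 209 CPM in DSS+AP (0.33 ± 0.11, edgeR adjusted p = 0.0469). Its groups nearly touched, with DSS 1 just below DSS+AP 4, and the call was lost without DSS 3, DSS 4 or any 1 DSS+AP library (adjusted p 0.0609 to 0.123), and by upper-quartile factors and library totals.

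The other subunits overlapped between groups. Their log2 fold changes were 0.40 for Cct3 (edgeR adjusted p = 0.0586), 0.34 for Cct7 (adjusted p = 0.055), 0.29 for Cct6a (0.141), 0.28 for Cct8 (0.111), 0.23 for Cct2 (0.122) and 0.13 for Cct4 (0.318). Tcp1, the first subunit, which the rule leaves out, gave 0.31 ± 0.13 (adjusted p = 0.0983). Within DSS every subunit was lowest in DSS 3, and DSS 1 lay within the range of the DSS+AP libraries for all 6 of these subunits. Without DSS 1, Cct3, Cct6a, Cct7, Cct8 and Tcp1 passed. With limma-voom these genes and Cct2 passed, and Cct3 and Cct7 also passed with DESeq2 and without a low-count filter. Cct7 passed with RLE scaling too, and Cct4 passed in no alternative. Cct6b and Cct8l1, relatives of the ring subunits, were at or below 0.558 CPM in every library and were not tested.

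Of the 44 J-domain genes 39 were tested, 5 (12.8%) were higher and 6 (15.4%) lower, near the 8.84% and 20.4% of all tested genes, with a median log2 fold change of 0.03. Dnaja1 and Dnajb1, the main partners of cytosolic Hsp70, fell with Hspa8. Dnaja1 was at 263, 285, 210 and 268 CPM in DSS and at 198, 181, 161 and 164 CPM in DSS+AP (-0.54 ± 0.11, edgeR adjusted p = 0.00883). Dnajb1 (Hsp40), the classic heat-induced J protein, was at 66.6, 76.5, 62.6 and 79.4 CPM in DSS and at 56.4, 51.3, 47.2 and 46.8 CPM in DSS+AP (-0.50 ± 0.10, adjusted p = 0.00806). Neither gene's groups overlapped and both calls held in all 17 alternatives. For Dnaja1, 10.5% of exon bases overlap genes on the other strand and 11.9% of 50-base stretches occur in other genes' transcripts. Dnaja2, a close relative of Dnaja1, was at 174 to 185 CPM in DSS and 179 to 203 CPM in DSS+AP without passing the test.

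Dnajb5, a relative of Dnajb1, was at 22.6, 14.8, 18.6 and 20.1 CPM in DSS and at 9.30, 15.8, 9.92 and 11.1 CPM in DSS+AP (-0.72 ± 0.20, edgeR adjusted p = 0.0242). DSS+AP 2 lay above DSS 2, and the call was lost without any 1 of DSS 1 and 4 and DSS+AP 1, 3 and 4 (adjusted p 0.0615 to 0.0852). Dnajb2, a J protein best known from neurons that carries ubiquitin-binding motifs, changed by -0.25 ± 0.08 (adjusted p = 0.0485), and that call was lost without any 1 library other than DSS+AP 4 (adjusted p 0.0617 to 0.185). It was also lost with RLE scaling, without a low-count filter, without robust estimation and with the replicate number as a block.

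Dnajc6 (auxilin), which recruits Hspa8 to uncoat clathrin vesicles in neurons, was at 3.96, 2.06, 2.29 and 4.14 CPM in DSS and at 1.32, 1.05, 0.620 and 1.05 CPM in DSS+AP. The groups did not overlap, and the log2 fold change was -1.61 ± 0.32 (edgeR adjusted p = 0.00822). The gene rests on 211 counts in all DSS libraries and 67 in all DSS+AP libraries. The summed level of enteric neuron and glia markers was between 95.7 and 178 CPM in DSS and between 21.8 and 42.7 CPM in DSS+AP, with 10 of 10 genes lower, and its part in the Dnajc6 fall was not tested.

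Dnajc22 had the smallest adjusted p of the higher genes. It was at 38.1, 46.1, 42.4 and 43.3 CPM in DSS and at 57.8, 58.9, 59.4 and 62.8 CPM in DSS+AP, without overlap and with little spread (0.49 ± 0.08, edgeR adjusted p = 0.00388), and it was assigned to no compartment here. Dnajc7, which links Hsp70 to Hsp90, was at 108 to 123 CPM in DSS and 132 to 143 CPM in DSS+AP (0.22 ± 0.07, adjusted p = 0.0347). The Dnajc7 call was lost without any 1 of DSS 3 and 4 and DSS+AP 1, 3 and 4 (adjusted p 0.06 to 0.0853). It was also lost by upper-quartile factors, by library totals and with the replicate number as a block. Of the Dnajc7 exon bases, 12.3% overlap Nkiras2 on the other strand.

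Of the 6 BAG genes, Bag3 alone (16.7%) was lower and none was higher, against 20.4% and 8.84% of all tested genes. Bag3, which joins Hsp70 and Hspb8 in chaperone-assisted autophagy, was at 70.8, 62.4, 70.7 and 69.2 CPM in DSS and at 48.9, 58.9, 54.4 and 51.3 CPM in DSS+AP. The groups did not overlap and the log2 fold change was -0.36 ± 0.08 (edgeR adjusted p = 0.0119), lost without DSS+AP 1 (adjusted p = 0.0694). Bag1, the founding nucleotide exchange factor, was at 178 to 196 CPM in DSS and 197 to 216 CPM in DSS+AP and did not pass (0.15, adjusted p = 0.126).

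The 9 untested genes were near or below the limit of these libraries. Dnajb8 had no count in any library, which allows up to 3 counts in each, and Hspb3 had 1 count in DSS+AP 2 alone. Dnajc5b had 9 counts over the DSS libraries and 0 over the DSS+AP libraries. Cct6b, Cct8l1, Dnajb3, Dnajb7, Dnajb13 and Hspb9 had between 6 and 27 counts over the 4 libraries of either group.

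Genes that work with these chaperones but fall outside the naming rule were taken as a list of 42, of which 41 were tested. Of these, 4 (9.76%) were higher and 4 (9.76%) lower, against 8.84% and 20.4% of all tested genes. The median log2 fold change was 0.12. The higher ones were the Hsp90 partner Fkbp4 (0.57 ± 0.12, edgeR adjusted p = 0.0101), the mitochondrial Hsp70 exchange factor Grpel1 (0.44 ± 0.08, adjusted p = 0.00556), the mitochondrial Hsp90 Trap1 (0.39 ± 0.08, adjusted p = 0.00833) and the prefoldin subunit Pfdn1 (0.36 ± 0.09, adjusted p = 0.0227). Grpel1 was at 46.0 to 55.3 CPM in DSS and 64.9 to 71.5 CPM in DSS+AP. Its relative Grpel2 gave -0.05 (adjusted p = 0.768) and its groups overlapped.

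The lower partners described were Unc45b, the myosin chaperone of muscle (-1.16 ± 0.31, edgeR adjusted p = 0.0225), Serpinh1, the collagen chaperone Hsp47 (-0.99 ± 0.25, adjusted p = 0.0194), and Cryab, a small heat shock protein of muscle and lens (-0.68 ± 0.21, adjusted p = 0.0378). Each of these 3 calls was lost without some single library: Serpinh1 without any 1 of DSS 1 and 4 and DSS+AP 1, 3 and 4 (adjusted p 0.0515 to 0.0669), Unc45b without any 1 of DSS 1 and 4 and DSS+AP 1 and 4 (0.0509 to 0.0746), and Cryab without any 1 of DSS 1, 3 and 4 and DSS+AP 1, 3 and 4 (0.0571 to 0.12). Pfdn1 was lost without any 1 of DSS 3 and 4 and DSS+AP 1 and 3 (0.0506 to 0.0672). Hsf1, the transcription factor that drives the heat shock response, was at 25.3 to 28.8 CPM in DSS and 26.2 to 30.1 CPM in DSS+AP (0.06 ± 0.08, adjusted p = 0.616). Messenger RNA level does not measure the activity of that factor.

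The immediate early genes, which report handling and stress of tissue within minutes, summed to between 657 and 789 CPM in DSS and between 417 and 617 CPM in DSS+AP, with 6 of 12 lower. Among all tested genes 20.4% were lower. Fos, Fosb, Egr1, Atf3, Ier2 and Nr4a1 did not pass edgeR's test. The immediate early genes were lower beside Hspa1a, Hspa1b, Dnajb1 and Hspa8. DSS 3 had the highest sum of its group, but the lowest Hspa1b, Dnajb1 and Hspa8. DSS+AP 1 had the highest sum of its group, and also the highest Hspa1a, Hspa1b, Dnajb1 and Hspa8. The part of the immediate early genes in those falls was not tested. Of the 27 calls, 12 held in all 17 alternatives: Hspa2, Hspb8, Hspa8, Hspa1a, Hspa1b, Dnajb1, Hspb6, Dnajc6, Dnaja1, Dnajc22, Dnajc11 and Hspe1. Leaving out 1 library moved the number of higher genes by over 1.5 times for DSS 1 (16), DSS 3 (4), DSS 4 (4), DSS+AP 3 (3) and DSS+AP 4 (5), and the number of lower genes for DSS+AP 1 (10). In the same fits 9.96%, 5.77%, 3.59%, 3.82% and 5.15% of all tested genes were higher, and 13.4% were lower without DSS+AP 1.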

How the data were processed

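RNA of 8 mouse colons was analysed, 4 libraries in each of 2 groups. Column-purified total RNA was made, per the labels' protocols, into messenger RNA libraries with a SMARTer kit. Per the submitters' processing notes, HISAT2 2.1.0, Bowtie2 2.2.5, RSEM 1.2.8 and build GRCm38.p6 were named, with no role stated. The deposited values are the authors' expected counts per gene, not normalized: between 10.7% and 11.5% of values in a library were not whole. The strand setting of the counting was not given in the sources used here, so overlapping genes on opposite strands cannot be told apart. Totals ran from 16089081 to 17104290 counts. Every pair of libraries of 1 group differed beyond counting noise (chi-square per gene at least 11.4).

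Counts were rounded, filtered with filterByExpr, scaled by TMM and tested in edgeR 4.0.16 under R 4.3.3 (robust quasi-likelihood F test, no covariate). Benjamini-Hochberg adjustment ran over 14578 genes with a threshold of 0.05, and each SE is the log2 fold change over the root of F. CPM uses TMM-scaled totals of tested genes, and the floor was 3 counts. The steps were tested on simulated data. The genes, the 16 lists and the tests were chosen with earlier results of these data known. Named genes are every member past the threshold, 1 gene for each main chaperone whatever its result, the CCT subunits, and partners past the threshold with Hsf1 and Tcp1 (1 of the partners is not reported here); other members named mark ranges or were chosen after their values were seen. Compartments were assigned by hand from textbook knowledge. Coordinates and promoter windows are RefSeq's, for GRCm38.p6 (86 of 86 and 70 of 86 genes matched). Exon lengths, overlaps and shared 50-base stretches come from GENCODE models of the same assembly. The 17 alternatives were 3 other scalings, 2 other low-count filters, no robust estimation, DESeq2 1.42.0, limma-voom 3.58.1 with quality weights, the replicate number as a block, and each library left out.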

Additional observations from a re-analysis of the deposited data

Results flagged for a closer look

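In a group of 4 libraries, a value was singled out when its gap to the nearest other library took up more of the group's range than Dixon's 95% limit allows, which chance does in about 1 group in 20. DSS+AP 2 was far above the other libraries of its group for Hspa5 (1310 CPM, others 779 to 866), Hspb1 (35.1 CPM, others 12.3 to 15.1), Hspb8 (15.4 CPM, others 8.86 to 9.80), Cryab (13.3 CPM, others 7.32 to 8.31), Serpinh1 (154 CPM, others 88.1 to 99.3) and the fibroblast marker sum (2084 CPM, others 1340 to 1461). DSS+AP 4 was far below the others for Dnajc11 (93.3 CPM, others 107 to 109) and Hsp90ab1 (1518 CPM, others 1705 to 1730). The pancreatic acinar sum was 15110 CPM in DSS 4, against 43.1 to 54.8 CPM in the other DSS libraries. The adipocyte marker sum was 168 CPM in DSS+AP 3, against 58.4 to 77.1 CPM in the others. The sum of spermatid markers was 0.186 CPM in DSS 3 and 0 in the other DSS libraries, which is the level of 3 counts.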

How the results depend on the processing

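The main fit gave 9 higher and 18 lower chaperone genes of 77 tested. The number of higher genes was 5 with upper-quartile factors and 4 with library totals, where 6.75% and 5.26% of all tested genes were higher. It was 16 (of 85) without a low-count filter, 15 with DESeq2 and 23 with limma-voom, against 10.7%, 14.5% and 16.5% of all tested genes. When 1 library was left out it ranged from 3 to 16, while the share of all tested genes ranged from 3.59% to 14.3%. The number of lower genes then ranged from 10 to 18, and the share of all tested genes from 13.4% to 20.9%. With the replicate number as a block it was 11 (all tested genes 13.5%), and the number of higher genes was 6 (all tested genes 3.99%). The calls lost with the block were Bag3, Cct5, Dnajb2, Dnajb5, Dnajc7, Dnajc15, Hspa12a, Hspa12b, Hspb1 and Hspb7. Among the partners they were Cryab, Pfdn1, Serpinh1 and Unc45b. Without a low-count filter the calls of Dnajb2, Hspb1, Hsph1 and the partner Cryab were lost. The labels do not say whether the replicate numbers pair the libraries. Libraries of the same number had correlations of -0.136, -0.452, 0.359 and -0.185 in their deviations from the group means. Correlations over all genes cannot exclude a smaller effect shared by libraries of the same number. The cause of these shifts was not tested, except that omitting a library leaves fewer samples. Of the 27 calls, 15 were lost in at least 1 of the 17 alternatives and none changed direction. Of the 10 uncalled chaperone genes followed through the alternatives, 6 passed in at least 1 of them. Among the 10, Hsp90b1 changed sign, to -0.066 without DSS+AP 2, with values up to 0.21 (without DSS+AP 1) when other libraries were left out. Genes under 3 counts in a library cannot be compared.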
